A study of Mus musculus with 48 samples.

Results

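The gonadal effect in XY mice of the FCG model, in which gonads and sex chromosomes vary independently, was described as the difference in liver transcripts between 6 XY mice with ovaries (XY Ov Intact, genotype XY-) and 6 XY mice with testes (XY Te Intact, genotype XY-;SryTg), which are 12 of the 48 mice sequenced, all on the C57BL/6 background. The mice were chosen by genotype and by intact gonads alone, and all genes that passed a filter on low counts entered the comparison. In FCG mice the Y chromosome lacks Sry, the gene that directs the formation of a testis, and mice with testes carry Sry as a transgene on an autosome, so XY mice exist with either gonad. All 12 mice carried that Y chromosome, kept their gonads and ate a high-fat diet (HFD) with 60% of calories from fat for 11 weeks, from an age of 15 to 17 weeks. The ovaries or testes and the absence or presence of the Sry transgene came together in every mouse and cannot be told apart. Other mice used for comparison were 6 XX Ov Intact and 6 XX Te Intact mice on the same diet schedule, and 6 XY Ov GDX and 6 XY Te GDX mice, gonadectomized (GDX) at an age of 75 days and given the same diet for 15 weeks. These durations are those of the sample labels, and the methods of the study give a week less for intact and a week more for GDX mice.

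The mouse liver is among the most sexually dimorphic organs outside the reproductive tract. Much of the dimorphism follows growth hormone, which the pituitary releases in separated pulses in males and more continuously in females under the influence of gonadal steroids, and which acts in hepatocytes through the transcription factor STAT5. The repressor BCL6 is enriched in male liver and the repressor CUX2 in female liver, and the genes downstream encode cytochromes P450, sulfotransferases, transporters and secreted urinary pheromone carriers.

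With ovaries, livers expressed some cytochromes P450 and some sulfotransferases at higher levels, among them Cyp2c69, Cyp2c40 and Sult3a1. Some interferon-stimulated, antigen-presentation and T cell transcripts were also higher with ovaries. With testes, the major urinary proteins, Cyp4a12 enzymes, Elovl3, Cyp2d9 and Hsd3b5 were higher. Among 13735 genes tested with edgeR's quasi-likelihood test, 837 (6.09%) had a Benjamini-Hochberg adjusted p under 0.05 and are named called here. Ovaries had the higher level for 568 of them (4.14% of the genes tested) and testes for 269 (1.96%). Ovaries accounted for 67.9% of the calls, and for 79.5% when libraries were scaled by their total reads, which moved the median of all genes by 0.07 on the log2 scale. The median log2 fold change (ovaries over testes) over all genes tested was 0.01.

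**Figure D1:**
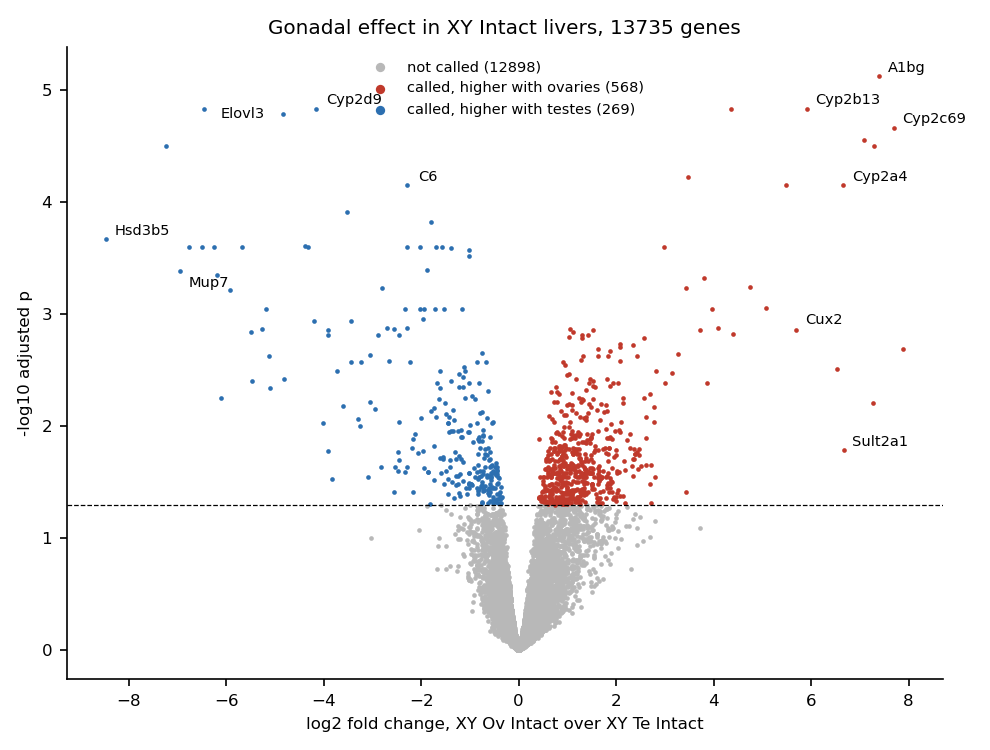
Log2 fold change (XY Ov Intact over XY Te Intact, x axis) against -log10 of the adjusted p (y axis) for 13735 genes, 1 point a gene, with the threshold as a dashed line. On the right are 568 called genes and on the left 269, and the point farthest to the left is Hsd3b5.

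The counts of strongly changed genes were closer than the totals. More than 4-fold changes were found for 79 of the called genes on the ovary side and 68 on the testis side, and more than 16-fold changes for 17 and 24. The 6 values of one group all lay above the 6 of the other in 268 of the genes called with ovaries and in 180 of those called with testes. Over all genes tested, whatever their p, 4.15% had groups that did not overlap, 2.23% with ovaries above and 1.92% with testes above.

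Libraries held 14467418 to 20045141 reads on genes. Reads that aligned to several places made up 11.5 to 13.4% in XY Ov Intact and 11.0 to 18.9% in XY Te Intact libraries, with 4 of the 6 Te libraries (1 to 4) at 16.2% or more. XY Te 5 stood apart on the second principal component (20.9% of the variance of the 1000 most variable genes, against 59.2% for the first, which separated the groups). Transcripts of cytosolic ribosomal proteins, which are short, summed to 5670 CPM (read counts scaled to the size of each library) in XY Te 5. The other Te mice had 12440 to 33560 and the Ov mice 12780 to 43520, so the groups overlapped. The Ov mice were not alike, with 12780 to 16180 in XY Ov 1 to 3 and 28460 to 43520 in XY Ov 4 to 6, a division seen in the data. Chi-square per gene, a measure of how far 2 libraries differ, was 33.4 to 54.9 within these sets of Ov mice and 75 to 179 across them. The 2455 genes with the shortest transcripts (204 to 1702 bases) had a median log2 fold change of 0.15. The 2452 genes with the longest (4847 bases or more) had one of -0.11. Of the shortest, 8.15% were called (144 with ovaries, 56 with testes), and of the longest 3.22% (48 and 31). The cause was not tested. Without XY Te 5, 994 genes were called. With the ribosomal protein level as a covariate, a fit chosen after the data were seen, 1995 were called. Leaving out XY Ov 4, Ov 5 or Ov 6 or XY Te 2 or Te 4 cut the count by more than 1.5 times, to 501, 435, 523, 468 and 430.

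Of the defining transcripts of the genotype, 4 Y-linked genes were read in all 12 livers. Ddx3y averaged 59.3 ± 4.45 normalized CPM with ovaries and 66.4 ± 11.3 with testes (SD, n = 6 each), and none of Ddx3y, Kdm5d, Uty and Eif2s3y was called. Sry had 1 read in the 12 libraries, in XY Te 4, so the transgene could not be checked in liver. None of the 10 hepatocyte markers was called (4 had an unadjusted p under 0.05, and DESeq2 called 1), and their summed level ran from 84420 to 127400 CPM with ovaries and from 94290 to 154500 with testes. In bulk tissue, fewer cells of a type and less RNA per cell cannot be told apart.

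The sequence just before the start of 5 genes that lead the comparison is given to show the letters from which transcription of genes on either side starts. Each is the 250 bases before the RefSeq start of the gene, read on the gene's strand, in build GRCm38.p6. Capitals mark matches to TTCNNNGAA, the letters bound by STAT5, and to ATTGAT, letters bound by HNF6 (Onecut1), a liver factor whose sites CUX2 can share, searched on both strands. A1bg lies at chr15:60921271-60921520 (minus strand), Sult3a1 at chr10:33857472-33857721 (plus), Cyp2c69 at chr19:39886770-39887019 (minus), Mup7 at chr4:60070476-60070725 (minus) and Hsd3b5 at chr3:98645535-98645784 (minus).
A1bg, higher with ovaries: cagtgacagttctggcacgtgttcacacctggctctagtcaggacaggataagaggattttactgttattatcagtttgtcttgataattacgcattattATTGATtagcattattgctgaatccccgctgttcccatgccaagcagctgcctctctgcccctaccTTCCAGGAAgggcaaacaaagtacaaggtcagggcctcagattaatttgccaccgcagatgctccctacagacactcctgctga
Sult3a1, higher with ovaries: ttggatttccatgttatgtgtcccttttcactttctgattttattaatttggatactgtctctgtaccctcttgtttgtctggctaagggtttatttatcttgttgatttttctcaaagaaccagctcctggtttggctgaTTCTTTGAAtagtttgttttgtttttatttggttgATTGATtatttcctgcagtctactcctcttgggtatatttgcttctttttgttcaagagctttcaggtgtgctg
Cyp2c69, higher with ovaries: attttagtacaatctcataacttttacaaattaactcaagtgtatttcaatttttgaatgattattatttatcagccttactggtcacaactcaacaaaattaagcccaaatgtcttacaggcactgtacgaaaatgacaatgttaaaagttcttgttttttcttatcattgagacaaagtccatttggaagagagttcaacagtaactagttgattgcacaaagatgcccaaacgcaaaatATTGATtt
Mup7, higher with testes: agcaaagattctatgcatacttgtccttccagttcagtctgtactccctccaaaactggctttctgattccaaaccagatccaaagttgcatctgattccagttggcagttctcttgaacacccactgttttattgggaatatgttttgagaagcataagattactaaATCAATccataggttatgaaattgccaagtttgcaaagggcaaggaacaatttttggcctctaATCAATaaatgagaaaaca
Hsd3b5, higher with testes: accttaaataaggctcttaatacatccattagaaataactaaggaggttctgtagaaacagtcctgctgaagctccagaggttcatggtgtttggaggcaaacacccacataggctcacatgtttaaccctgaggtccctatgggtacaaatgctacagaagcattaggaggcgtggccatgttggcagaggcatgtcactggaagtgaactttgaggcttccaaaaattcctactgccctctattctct
A1bg holds TTCCAGGAA 84 bases before its start, Sult3a1 holds TTCTTTGAA 109 bases before, and the 3 others hold no match to TTCNNNGAA in this window. Mup7 has ATCAAT, the reverse complement of ATTGAT, at 82 and at 19 bases before its start, and Hsd3b5 matches neither motif.

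Windows could be assigned without doubt to 7884 of the genes tested, those with a single RefSeq start matched by symbol, which include 311 of the genes called with ovaries and 142 of those called with testes. TTCNNNGAA was found in 11.3% of windows of genes higher with ovaries, 6.34% of those higher with testes and 6.28% of all such genes tested. ATTGAT was found in 7.4%, 12.7% and 3.91%. Over the 32851 windows of the RefSeq table outside chromosome 18, the shares were 7.02% and 6.72%. These are matches of letters, given as a description, with motifs chosen when results were known.

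Genes long known as dependent on testes in mouse liver were called in 20 of 21 tested, all of them higher with testes, with a median log2 fold change of -3.84. This list and the one of female-biased genes were drawn up from general knowledge of the liver, with earlier results of these mice known, so their direction is a description. Both lists share genes with the family lists below, so counts are not additive. The count of each list stands against 6.09% of all genes tested, 4.14% with ovaries and 1.96% with testes. A list near that share has no more calls than genes at large. Hsd3b5, a 3-ketosteroid reductase of male liver, ranged from 20.8 to 396 normalized CPM (median 79.8) with testes and from 0 to 0.765 (median 0.295) with ovaries. All Te values lay far above all Ov values, which rest on 36 reads over the 6 libraries, so the fitted log2 fold change of -8.46 ± 0.89 (SE; adjusted p = 0.000215) depends on the prior count of the fit.

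Elovl3, an elongase of very long chain fatty acids, had a narrow range with testes. Its level was 120 to 186 CPM (median 146) with testes and 2.43 to 11.2 (median 3.81) with ovaries, a 28.5-fold difference (log2 -4.83 ± 0.38, adjusted p = 1.64e-05). Cyp2d9, a steroid 16-alpha-hydroxylase, was likewise tight with testes, at 504 to 718 CPM (median 568), against 19.1 to 68.5 (median 25.9) with ovaries (log2 -4.15 ± 0.31, adjusted p = 1.46e-05). It was the one member called of 5 tested Cyp2d genes.

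Cyp4a12a, which makes 20-HETE from arachidonic acid, was measured at 53.9 to 154 CPM (median 98.7) with testes and 0 to 4.69 (median 0.734) with ovaries (log2 -6.18 ± 0.74, adjusted p = 0.000444). Cyp4a12b moved with it at -7.23 ± 0.62 (adjusted p = 3.14e-05), and the 2 genes are close enough in sequence to exchange reads. Cyp4a12b averaged 0.105 CPM with ovaries, less than 3 reads in any of these libraries. The size of its change therefore depends on the prior count. Of 12 Cyp4a and Cyp4f genes tested, 5 were called, all higher with testes, and the list's median was -0.51. Cyp4a10 and Cyp4a14, which respond to PPARalpha, had log2 fold changes of 0.46 and 0.24 and were not called (both were chosen after their values were seen).

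**Figure D2:**
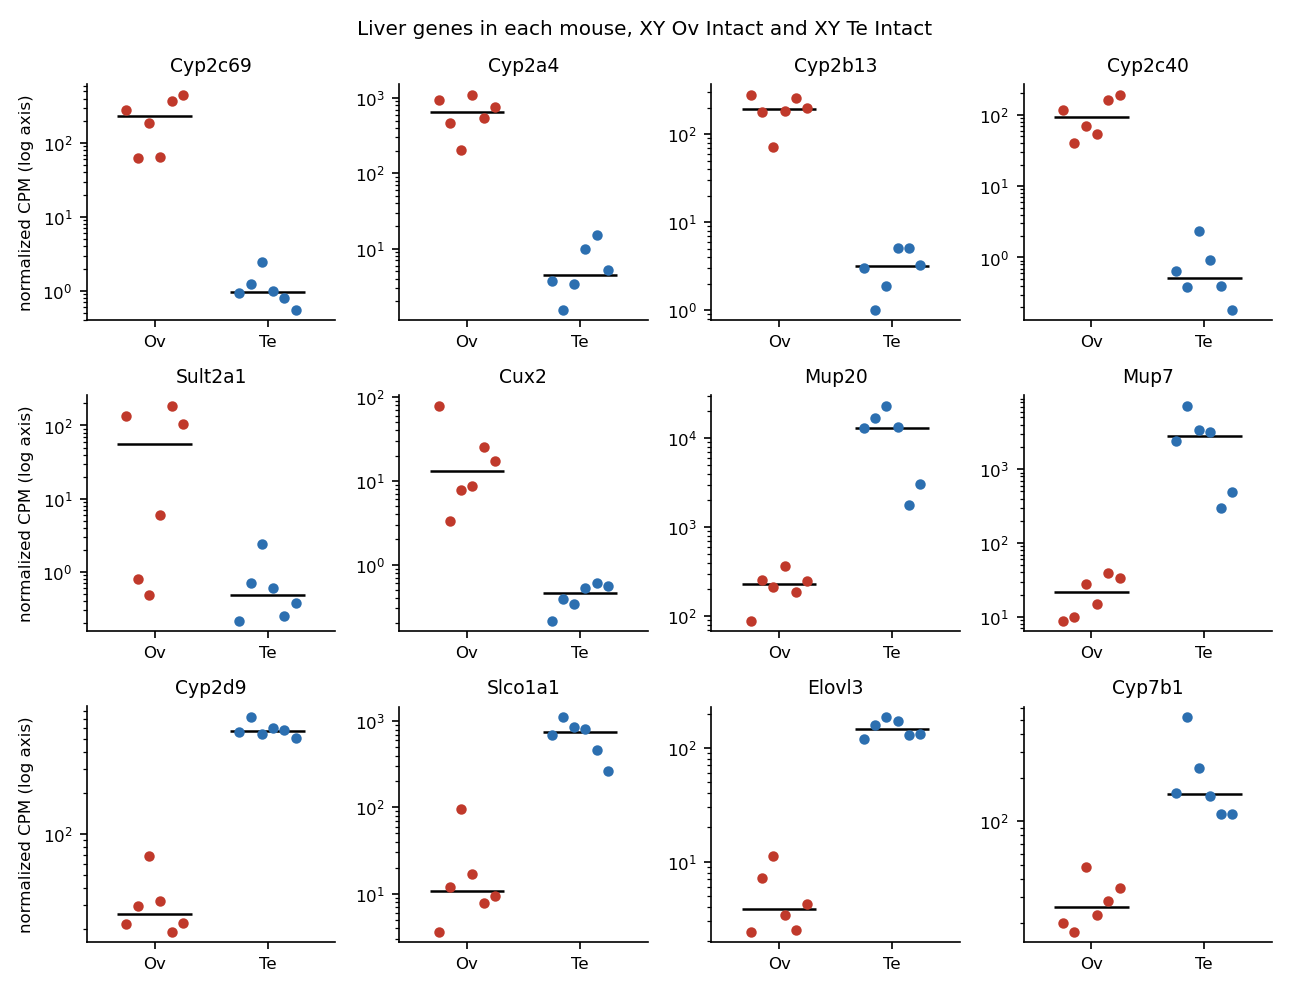
Normalized CPM (log axis) of 12 genes in each of the 6 XY Ov Intact (red) and 6 XY Te Intact (blue) mice, ordered within a group by replicate number, with the group median as a bar. The groups are apart for every gene shown except Sult2a1, where 2 Ov mice lie within the Te range, and Mup7 and Mup20 are lower in the last 2 Te mice than in the other 4.

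The major urinary proteins (MUPs), lipocalins that carry pheromones into urine, were called in 15 of 16 tested, all higher with testes (median log2 fold change -4.16). Mup20, the pheromone known as darcin, reached 1758 to 22770 CPM (median 13020) with testes and 89.1 to 362 (median 232) with ovaries. Its log2 fold change was -5.67 ± 0.62 (adjusted p = 0.00025). Mup7 ran from 295 to 7091 CPM (median 2792) with testes and from 8.91 to 39.5 (median 21.5) with ovaries (log2 -6.95 ± 0.82, adjusted p = 0.000409). The Te mice were not alike, since XY Te 5 and XY Te 6 had 295 and 494 CPM of Mup7 where the lowest of the other 4 had 2436.

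Summed over the family, MUP transcripts took 3718 to 12490 CPM (median 5639) with ovaries and 8393 to 62290 (median 46020) with testes. XY Te 5 had the 8393 and XY Te 6 had 16290, so the summed level of 1 Te mouse fell within the Ov range. The share of reads aligned to several places was 11.0% and 13.6% in these 2 libraries and 16.2 to 18.9% in the other 4 Te libraries. MUP genes are nearly identical copies, and the part of such reads in the MUP values was not tested. Without XY Te 5, 15 MUPs were called, and 11 were called without XY Ov 2, Ov 3 or Ov 4 or XY Te 2 or Te 4.

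Steroid-handling enzymes divided by direction. Of 23 tested genes of steroid hormone metabolism, 4 were called higher with testes and 1 with ovaries, and the median was -0.20. Srd5a1, the 5-alpha-reductase of liver, was 33.9 to 75.6 CPM (median 50.3) with testes and 9.97 to 29.4 (median 16.4) with ovaries, with no overlap (log2 -1.60 ± 0.27, adjusted p = 0.00458). Cyp7b1, an oxysterol and steroid 7-alpha-hydroxylase, was 113 to 522 CPM (median 154) with testes and 17.4 to 48.8 (median 25.5) with ovaries (log2 -2.88 ± 0.41, adjusted p = 0.00153). Cyp17a1, the 17-alpha-hydroxylase and 17,20-lyase, went the other way. It measured 98.4 to 168 CPM (median 146) with ovaries and 12.5 to 61.8 (median 29.7) with testes, again with no overlap (log2 2.08 ± 0.31, adjusted p = 0.00197).

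Bile acid genes were called in 5 of 27 with testes and 1 with ovaries (median -0.42), and the calls with testes fell to 2 under library totals and without XY Ov 4, Ov 5 or Ov 6 or XY Te 2. The 5 were Cyp7b1, the uptake carrier Slco1a1, the sterol 27-hydroxylase Cyp27a1 (-0.68 ± 0.16, adjusted p = 0.0231) and, chosen after their values were seen, Acox2 (-0.73) and Scp2 (-0.73), which act in peroxisomal side chain shortening. Cyp27a1, Acox2 and Scp2 lost their calls under 5, 6 and 10 alternatives. Slco1a1 was 268 to 1114 CPM (median 749) with testes and 3.61 to 96.8 (median 10.7) with ovaries (log2 -4.80 ± 0.78, adjusted p = 0.00377). XY Ov 3 supplied the 96.8 and the other 5 Ov mice had 17.0 or less. Its paralog Slco1a4 was higher with ovaries at 1.81 ± 0.29 (adjusted p = 0.00377).

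Among 22 tested organic anion and drug transporters, 4 were called with testes and 2 with ovaries. Slc22a27 and Slc22a28, members of the organic anion family, moved in opposite directions, at 3.27 ± 0.49 (adjusted p = 0.00227) and -4.19 ± 0.56 (adjusted p = 0.00115). The efflux pump Abcg2 was 2.15-fold higher with testes (-1.11 ± 0.18, adjusted p = 0.00322), and the organic anion carrier Slc22a7 3.23-fold (-1.69, adjusted p = 0.00818), which was chosen after its value was seen. Gstp1, a glutathione S-transferase long known to be male-biased in mouse liver, was the one of 20 glutathione S-transferases called. It ran from 275 to 850 CPM (median 389) with testes and from 71.3 to 104 (median 91.2) with ovaries (log2 -2.30 ± 0.26, adjusted p = 0.00025).

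Of 22 complement components tested, 3 were called, all with testes, and the list median was -0.19. The 3, C6, C8a and C9, are parts of the membrane attack complex. C6 measured 123 to 312 CPM (median 171) with testes and 32.5 to 48.5 (median 35.8) with ovaries (log2 -2.29 ± 0.22, adjusted p = 7.05e-05). C8a (-1.28 ± 0.28, adjusted p = 0.0195) and C9 (-1.02 ± 0.20, adjusted p = 0.0113) were the others. The list does not hold every complement gene. C4a, outside it and chosen after its value was seen, was called with testes (-3.43, adjusted p = 0.00116). C1qa (0.88), C1qb (1.13) and C1qc (0.99), listed with the macrophage markers, were called with ovaries. Alas2, the erythroid enzyme of heme synthesis, was 2.62-fold higher with testes (-1.39 ± 0.16, adjusted p = 0.000258). It averaged 30.5 CPM with ovaries and 80.9 with testes. The erythroid marker list that includes Alas2 overlapped in its sum, at 53.65 to 123.5 CPM with ovaries and 76.73 to 137.6 with testes. Alas2 therefore does not stand for the other erythroid markers. Scara5 (-6.46, adjusted p = 1.46e-05) and Serpina4-ps1 (-6.75, adjusted p = 0.00025), outside these lists, were among the 8 largest changes on the testis side, with mean Ov levels of 0.10 and 0.51 CPM.

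Classic female-biased genes were called in 22 of 31 tested, all higher with ovaries, with a median log2 fold change of 2.08. Cyp2c69 led the Cyp2c family. It was 63.4 to 444 CPM (median 231) with ovaries and 0.557 to 2.46 (median 0.964) with testes (log2 7.71 ± 0.63, adjusted p = 2.16e-05). Cyp2c40, which converts arachidonic acid to 16-HETE, was 40.0 to 188 CPM (median 93.3) with ovaries and 0.186 to 2.37 (median 0.522) with testes (log2 7.08 ± 0.59, adjusted p = 2.77e-05). Of 14 Cyp2c genes tested, 5 were called, all with ovaries, and 9 were not called (family median 0.27).

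Cyp2a4, a steroid 15-alpha-hydroxylase, was also among the leading genes of ovaries. Its levels were 202 to 1087 CPM (median 646) with ovaries and 1.56 to 15.3 (median 4.46) with testes (log2 6.66 ± 0.63, adjusted p = 7.05e-05). Cyp2b13 was 72.4 to 278 CPM (median 192) with ovaries and 1.01 to 5.13 (median 3.14) with testes (log2 5.91 ± 0.44, adjusted p = 1.46e-05). With Cyp2a22 (3.81 ± 0.46, adjusted p = 0.000474) they made up the 3 called of 7 Cyp2a and Cyp2b genes. Cyp3a44 was called alone of 5 Cyp3a genes, at 1.03 to 11.4 CPM (median 3.37) with ovaries and 0 to 0.254 (median 0.137) with testes. The 6 Te libraries held 12 reads of it in all.

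Fmo2 (2.08 ± 0.32, adjusted p = 0.00262) and Fmo4 (0.83 ± 0.17, adjusted p = 0.0149), which oxidize nitrogen and sulfur in drugs and metabolites, were also higher with ovaries, and neither gene's groups overlapped.

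Sulfotransferases of steroids and bile acids were called in 4 of 11 tested, all with ovaries (list median 0.56). The summed level of the list overlapped, at 1811 to 7780 CPM with ovaries and 1238 to 5694 with testes. Sult2a1 was 0.478 to 183 CPM (median 55.9) with ovaries and 0.214 to 2.37 (median 0.486) with testes (log2 6.68 ± 1.41, adjusted p = 0.0162). XY Ov 2 and XY Ov 3 had 0.791 and 0.478 CPM, within the Te range, while XY Ov 1, Ov 5 and Ov 6 had 105.8 or more. The call was lost with limma voom (adjusted p = 0.423) and when every gene with a read was tested (0.0631). Sult3a1 did not overlap, at 1.85 to 56.9 CPM (median 8.73) with ovaries and 0 to 0.678 (median 0.137) with testes (18 reads in all; log2 6.53 ± 1.03, adjusted p = 0.00309).

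A1bg, a secreted immunoglobulin-fold protein known to be female-specific in mouse liver, had the smallest adjusted p of all genes tested (7.43e-06). It was 5.46 to 15.3 CPM (median 7.98) with ovaries, and the 6 Te libraries held 4 reads of it. The fitted log2 fold change of 7.4 ± 0.47 therefore depends on the prior count.

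None of 19 tested genes of the growth hormone, STAT5 and IGF1 axis was called by edgeR (median 0.0). Of these, 3 had an unadjusted p under 0.05, and DESeq2 called 1. By the same test, Ghr, the growth hormone receptor, was 648 ± 89.8 CPM with ovaries and 814 ± 94.7 with testes (SD, n = 6 each; log2 -0.31 ± 0.13, adjusted p = 0.182). Lepr, the leptin receptor, was 5.30 to 44.9 CPM (median 18.0) with ovaries and 2.10 to 16.1 (median 6.27) with testes and missed the threshold (log2 1.74 ± 0.51, adjusted p = 0.0628). It passed under DESeq2 (adjusted p = 0.00656), under limma voom (0.0488) and without XY Te 5 (0.0230).

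Among transcriptional regulators of sex-biased genes, Cux2 was 3.29 to 77.8 CPM (median 13.1) with ovaries and 0.214 to 0.600 (median 0.461) with testes (log2 5.70 ± 0.79, adjusted p = 0.00139). Bcl6 was 12.6 to 19.4 CPM (median 17.1) with ovaries and 19.8 to 89.4 (median 55.2) with testes (log2 -1.63 ± 0.28, adjusted p = 0.00576). The lowest Te mouse for Bcl6 was just above the highest Ov mouse. Trim24, a co-repressor, was 45.3 to 90.8 CPM (median 57.4) with ovaries and 23.5 to 50.7 (median 29.1) with testes (log2 1.0 ± 0.23, adjusted p = 0.0224), and its call was lost without XY Ov 5 (0.0556) or XY Te 2 (0.0548). With Rarb (0.87 ± 0.22, adjusted p = 0.0348), these were the 4 called of 22 regulators, and Hnf4a was not called (-0.60 ± 0.22, adjusted p = 0.127) but passed under 4 alternatives. Rarb lost its call under 11 alternatives, and the calls with ovaries fell from 3 to 1 without XY Ov 5 or XY Te 2.

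Of 8 tested receptors for steroids and prolactin, 2 were called, both with ovaries. Esr1, which encodes estrogen receptor alpha, was 22.5 to 32.5 CPM (median 27.8) with ovaries and 7.63 to 17.6 (median 14.2) with testes, without overlap (log2 1.03 ± 0.18, adjusted p = 0.00632). Prlr, the prolactin receptor, was 160 to 367 CPM (median 264) with ovaries and 72.5 to 163.5 (median 127) with testes (log2 1.12 ± 0.24, adjusted p = 0.0156), and the lowest Ov mouse lay below the 2 highest Te mice.

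None of 25 cholesterol synthesis and SREBP2 genes and none of 19 genes of glucose production and insulin signaling was called, with medians of -0.19 in both. An unadjusted p under 0.05 was found for 1 and 2 of them, and DESeq2 called 0 and 1. Insig2, which retains SREBP precursors in the endoplasmic reticulum, was the one called of 20 lipogenic genes (6.09% of all genes tested were called), at 172 to 335 CPM (median 255) with testes and 114 to 210 (median 129) with ovaries (log2 -0.86 ± 0.20, adjusted p = 0.0255). The groups overlapped, and the call was lost under scaling by library totals (adjusted p = 0.0552) and without XY Ov 4, Ov 5 or Ov 6 or XY Te 4.

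Of 34 triglyceride storage and lipid droplet genes, 1 was called with ovaries and 2 with testes, where 4.14% and 1.96% of all genes tested were. The fatty acid transporter Cd36 was 301 to 846 CPM (median 505) with ovaries and 118 to 362 (median 278) with testes (log2 1.06 ± 0.28, adjusted p = 0.0393), and leaving out any of 9 of the 12 mice lost the call. Plin5 (-0.63 ± 0.17, adjusted p = 0.0393), a droplet coat protein, and the acyltransferase Agpat2 (-0.49 ± 0.11, adjusted p = 0.0232) were higher with testes, and lost their calls under 10 and 5 alternatives. Pnpla3, a lipid droplet hydrolase whose human variant is tied to fatty liver, was low in all mice. It was 0.567 to 3.50 CPM (median 0.800) with ovaries and 0.0619 to 0.763 (median 0.25) with testes, from 133 and 33 reads, and was not called (log2 1.84 ± 0.61, adjusted p = 0.0981). It passed under DESeq2 (0.0306), limma voom (0.0186), 1 surrogate variable (0.0244) and the ribosomal protein covariate (0.0312). PPARalpha and fatty acid oxidation genes had 1 call each way among 34, near the 6.09% of all genes tested. These were Acot2 (0.84) and Cpt2 (-0.38), which were lost under 11 and 14 alternatives.

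**Figure D3:**
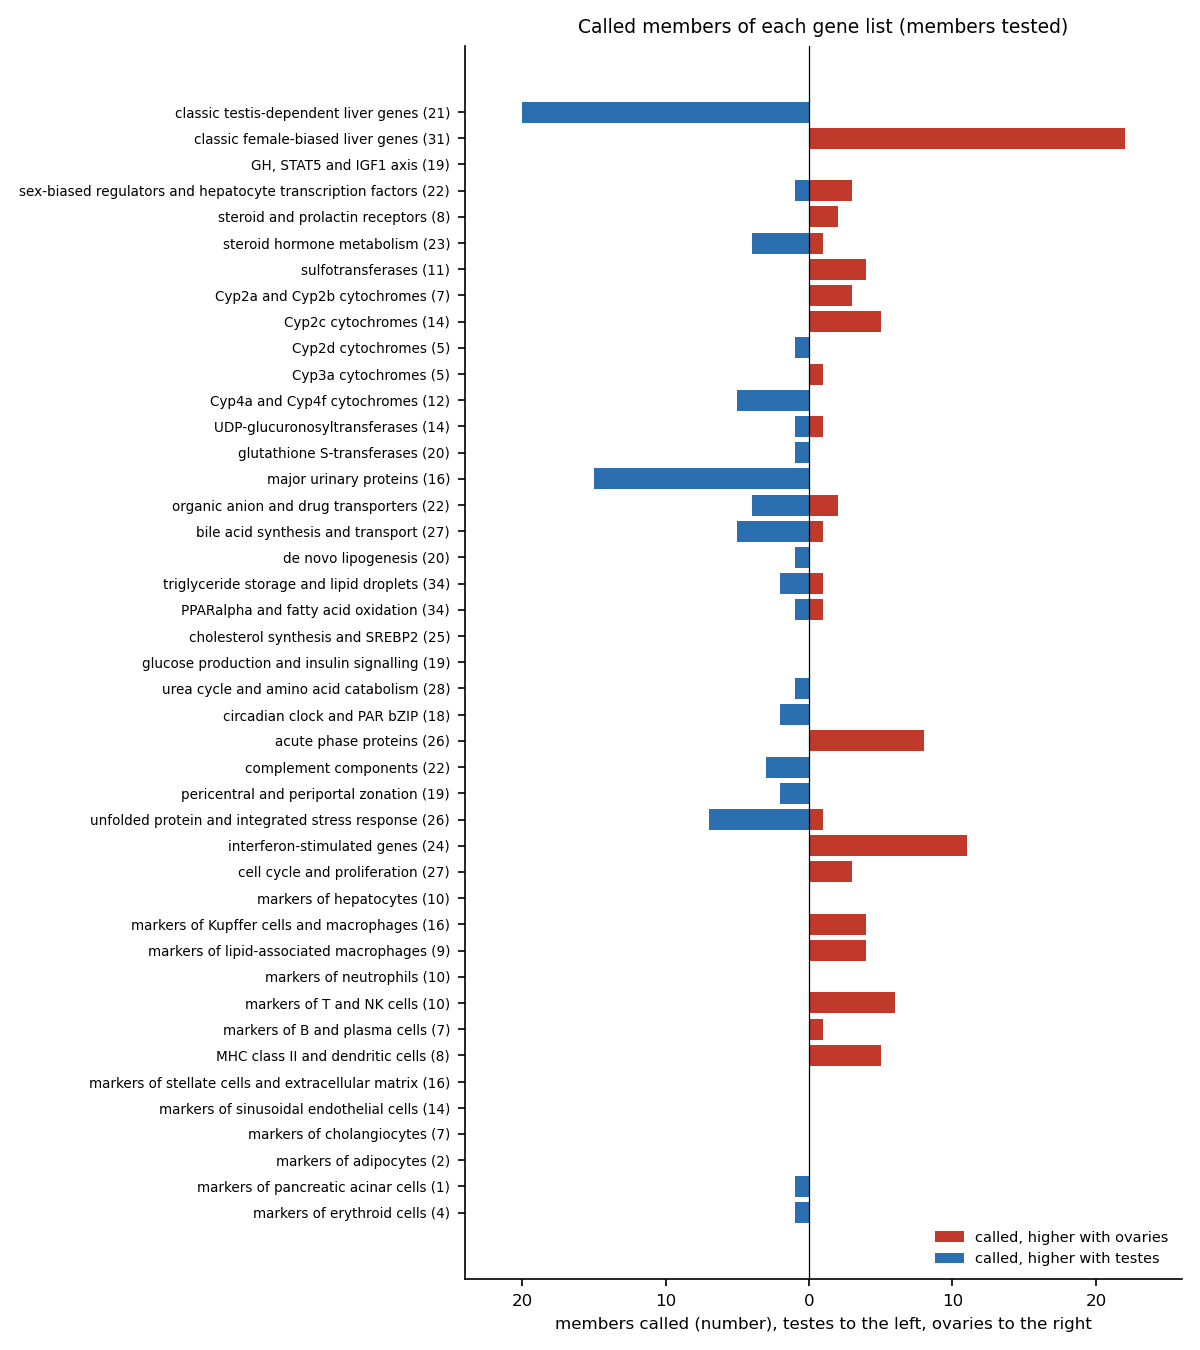
Number of members called in each of 43 gene lists (bars to the right for ovaries, to the left for testes), with the number tested in brackets after each name. The longest bars are the female-biased (22), testis-dependent (20) and urinary protein (15) lists, and several metabolic and cell type lists have none.

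Calls in the lists of interferon-stimulated, antigen-presentation, lymphocyte and macrophage genes were all on the ovary side. Of 24 interferon-stimulated genes, 11 were called, all with ovaries (median 0.63 against 0.01 for all genes). Ifi44 (1.30 ± 0.19, adjusted p = 0.00163), Gbp3 (1.17 ± 0.19, adjusted p = 0.00377) and Gbp2 (1.49 ± 0.27, adjusted p = 0.00676) had the smallest p. Without XY Te 2 the list had 5 calls, and with the 24 Intact libraries in 1 fit it had 3. Its summed level overlapped, at 942 to 1648 CPM with ovaries and 719 to 1686 with testes, with XY Te 3 the highest mouse. XY Ov 1 to 3 had 942 to 1016 CPM and XY Ov 4 to 6 had 1377 to 1648. All 5 called of 8 MHC class II and dendritic cell genes were also higher with ovaries, namely H2-Ab1, H2-Eb1, H2-Aa and, chosen after their values were seen, Cd74 (1.37) and Ciita (1.31), the co-activator of the others. Cd74 and Ciita lost their calls under 3 and 9 alternatives.

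H2-Ab1 was 13.9 to 51.9 CPM (median 17.2) with ovaries and 5.43 to 8.85 (median 6.42) with testes (log2 1.75 ± 0.32, adjusted p = 0.0075). XY Ov 4 had the highest value, and every Ov mouse was above every Te mouse. T and NK cell markers were called in 6 of 10, all with ovaries, although at low levels. Cd3d, a chain of the T cell receptor complex, was 1.03 to 3.86 CPM (median 1.73) with ovaries and 0.05 to 0.678 (median 0.243) with testes (24 reads in all; log2 3.0 ± 0.50, adjusted p = 0.00412). The 14 listed T and NK markers summed to 9.07 to 33.2 CPM with ovaries and 6.93 to 14.8 with testes.

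Of 16 Kupffer cell and macrophage markers, 4 were called with ovaries, the complement subunits C1qa, C1qb and C1qc and the monocyte receptor Ccr2 (C1qc was chosen after its value was seen). C1qb was 166 ± 43.4 CPM with ovaries and 76.8 ± 27.7 with testes (SD, n = 6 each; log2 1.13 ± 0.26, adjusted p = 0.0236). C1qa, C1qb and C1qc lost their calls under 7, 2 and 8 alternatives. The resident cell markers Clec4f, Vsig4 and Timd4 were read but not called, at 0.63, 0.82 and 0.33, and Marco was at -0.59 (all 4 were chosen after their values were seen). The list summed to 1285 to 2203 CPM with ovaries and 586 to 1378 with testes. XY Ov 1 to 3 had 1285 to 1345, within the Te range, and XY Ov 4 to 6 had 1841 to 2203. Without XY Ov 5, or without XY Ov 6, the list had 1 call, and without XY Te 5 it had 7.

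Lipid-associated macrophage markers were called in 4 of 9, all with ovaries, and in 1 without XY Te 2 or without XY Te 4. Trem2, a lipid-sensing receptor of these cells, was 2.31 to 8.99 CPM (median 5.15) with ovaries and 1.42 to 3.10 (median 1.89) with testes (log2 1.36 ± 0.31, adjusted p = 0.0239), and lost its call without XY Te 2 or XY Te 4. Of 7 B and plasma cell markers, Cd79b alone was called (1.63 ± 0.39, adjusted p = 0.0267), and it lost its call under 8 alternatives. None of 10 neutrophil markers was called by edgeR, 8 had an unadjusted p under 0.05 and DESeq2 called 4, and their median log2 fold change was 1.95. S100a9 averaged 102 ± 112 CPM with ovaries and 18.8 ± 16.6 with testes (SD, n = 6 each; adjusted p = 0.0808). The neutrophil list summed to 870 CPM in XY Ov 5 and to 56.9 in the lowest Ov mouse. None of 16 stellate cell and matrix, 14 sinusoidal endothelial or 7 cholangiocyte markers was called, with 2, 0 and 2 at an unadjusted p under 0.05 and 0, 0 and 1 called by DESeq2.

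Acute phase proteins were called in 8 of 26, all with ovaries (median 0.51). Orm2, an orosomucoid, was 16.8 to 118 CPM (median 28.9) with ovaries and 4.80 to 17.3 (median 8.02) with testes (log2 2.46 ± 0.52, adjusted p = 0.0159). Orm3 (2.37 ± 0.50, adjusted p = 0.0159) and the interleukin 1 antagonist Il1rn (1.42 ± 0.20, adjusted p = 0.00153) were called too, as were Saa1 (2.72), Saa2 (3.44), Lcn2 (2.81), Mt1 (2.32) and Mt2 (2.61), chosen after their values were seen. Saa1, Saa2 and Lcn2 lost their calls under 16, 12 and 6 alternatives, and Mt1 and Mt2 under 3 each. Saa1 was near the threshold (adjusted p = 0.0482), at 499 ± 676 CPM with ovaries and 76.3 ± 39.3 with testes (SD). XY Ov 5 had the highest Orm2, and the list had 3 calls without that mouse or without XY Te 2. The summed level of the list overlapped, at 20160 to 34980 CPM with ovaries and 18320 to 26490 with testes.

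**Figure D4:**
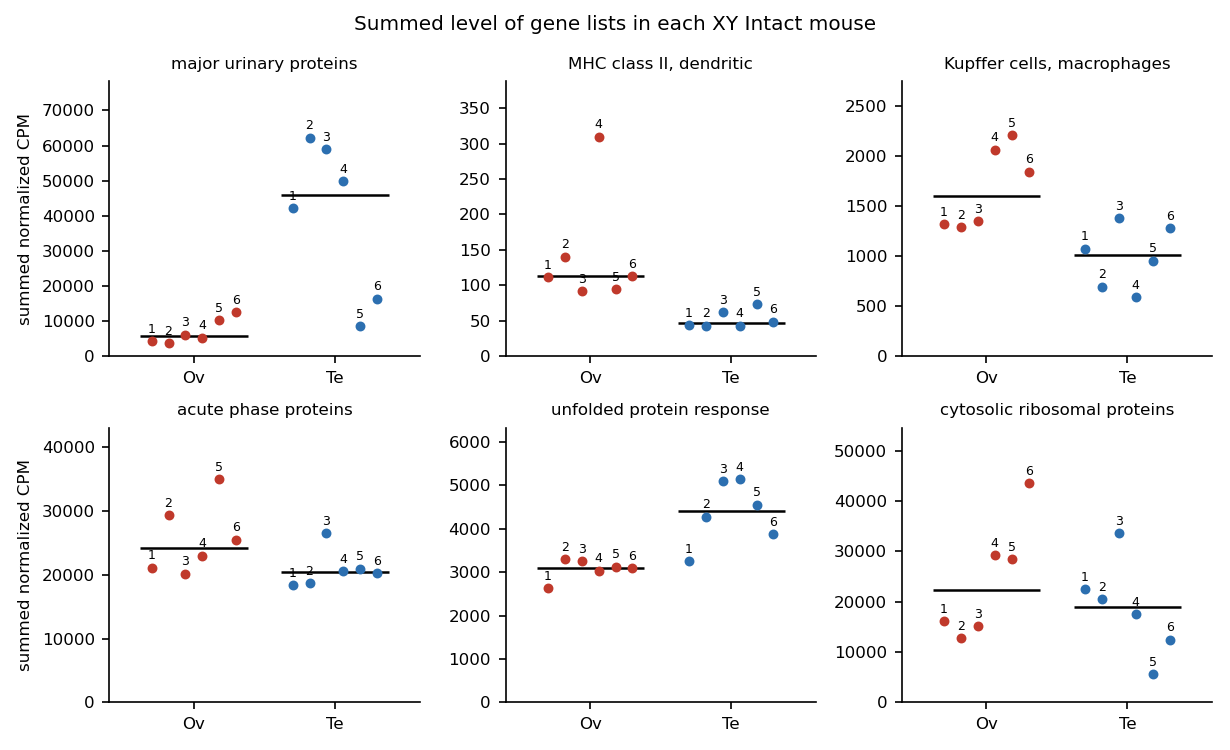
Summed normalized CPM of 6 groups of genes in each XY Ov Intact (red) and XY Te Intact (blue) mouse, numbered by replicate, with the group median as a bar. Only the MHC class II list keeps the 2 groups apart among these 6 sums, and XY Te 5 is lowest for ribosomal proteins (5670) and, within its group, for urinary proteins (8393).

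Of 26 genes of the unfolded protein and integrated stress response, 7 were called with testes, 1, Atf3, was called with ovaries (1.54 ± 0.33, adjusted p = 0.0170), and 18 were not called, with a median of -0.44. Creld2, a secreted chaperone-like protein induced by such stress, was 17.1 to 50.6 CPM (median 24) with testes and 7.27 to 16.7 (median 11.7) with ovaries (log2 -1.21 ± 0.29, adjusted p = 0.0269). Xbp1 (-0.71 ± 0.16, adjusted p = 0.0190), the transcription factor of the pathway, Dnajb11 (-0.73 ± 0.14, adjusted p = 0.0108) and, chosen after their values were seen, Hspa5 (-0.85, adjusted p = 0.0352) and Hyou1 (-1.29, adjusted p = 0.0337) were among the others. The calls of Hspa5 and Hyou1 were lost under 10 and 9 of the alternatives. Without XY Ov 4 the list had 1 call with testes, and with libraries scaled by totals it had 2.

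Cell cycle genes were called in 3 of 27, all with ovaries (4.14% over all genes), Cdkn2c (1.52 ± 0.26, adjusted p = 0.00568), Ccnd1 (0.94 ± 0.21, adjusted p = 0.0212) and Ccnb2 (0.68 ± 0.18, adjusted p = 0.0398). Cdkn2c encodes an inhibitor of cyclin-dependent kinases and Ccnd1 a cyclin that activates them. Ccnb2 lost its call under 12 alternatives, and without XY Te 4 the list had 1 call. The clock genes Bhlhe41 (-1.35 ± 0.24, adjusted p = 0.00718) and Arntl (-1.06 ± 0.28, adjusted p = 0.0403) were called with testes, 2 of 18 tested, and Arntl lost its call under 10 alternatives. Csad, which makes taurine's precursor, was the one called of 28 genes of the urea cycle and amino acid catabolism (-1.42 ± 0.32, adjusted p = 0.0231). Cyp2f2, a periportal cytochrome, was 2.17-fold higher with testes (-1.12 ± 0.18, adjusted p = 0.00296) and, with Cyp27a1, made up the 2 called of 19 zonation markers.

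The same gonadal effect was measured in XX Intact mice, which share no sample with the XY mice. In XX livers 236 of 13485 genes were called (1.75%), 107 with ovaries (0.793%) and 129 with testes (0.957%). Of the genes called in XY mice and tested in XX mice, 504 of 523 (96.4%) kept their direction on the ovary side and 255 of 262 (97.3%) on the testis side, while 77.3% of all genes tested in both kept theirs. The changes were smaller in XX mice, with a median log2 fold change of 0.57 for the ovary genes (1.11 in XY mice) and of -0.67 for the testis genes (-1.11 in XY mice). The XY genes were chosen for passing in XY mice, which favors the larger value there. Across the 13307 genes tested in both, the 2 sets of log2 fold changes had a Pearson correlation of 0.774, a description across genes, which are not independent replicates.

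Both backgrounds called 155 genes, all in the same direction, which is 65.7% of the XX calls and 18.5% of the XY calls. The difference of the effect between XY and XX mice was tested directly. None of 14322 genes passed (0%), by edgeR, DESeq2 or limma voom, and 457 (3.19%) had an unadjusted p under 0.05. Among steroid and P450 genes the log2 fold changes in XY and XX mice were 7.71 and 6.86 for Cyp2c69, 6.68 and 8.85 for Sult2a1, -2.88 and -1.89 for Cyp7b1, and 1.03 and 0.99 for Esr1. Among immune genes they were 1.75 and 0.56 for H2-Ab1, 2.46 and -0.74 for Orm2, 1.30 and 1.48 for Ifi44, and 1.17 and 1.5 for Gbp3. Of the genes called in XY mice, 3 of 8 acute phase genes and 11 of 11 interferon-stimulated genes had the same direction in XX mice. The difference passed for none of these genes. For Orm2 the difference was 3.22 ± 0.77 (log2, SE). A difference that did not pass is therefore not shown to be absent.

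**Figure D5:**
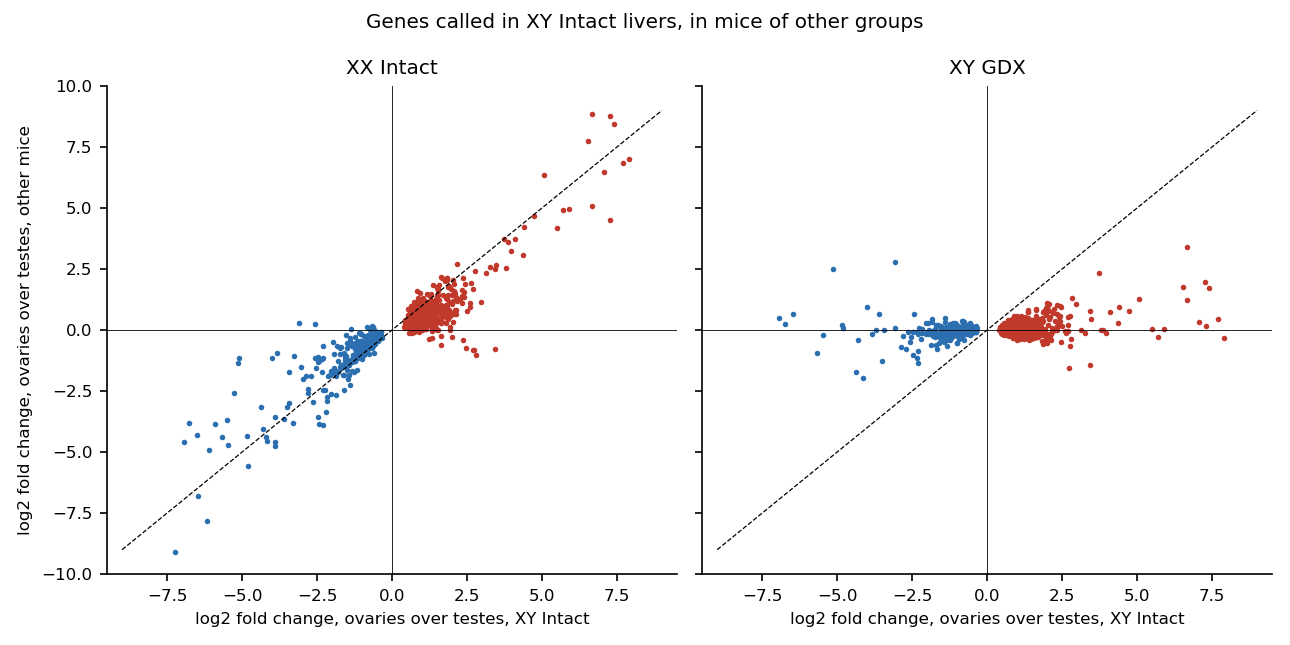
Log2 fold change (ovaries over testes) of the genes called in XY Intact livers (x axis, red for ovaries and blue for testes) against the same measure in XX Intact (left) and XY GDX (right) livers where tested (y axis), with the line of equal values dashed. In XX Intact mice 96.4% and 97.3% of the points keep their direction, with smaller medians of 0.57 and -0.67 (1.11 and -1.11 in XY Intact mice). In XY GDX mice the medians are 0.03 and -0.04.

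Few genes were called between gonadectomized mice. In XY GDX mice, 11 of 14323 genes (0.0768%) passed between those that had ovaries and those that had testes, 6 on the ovary side (0.0419%) and 5 on the testis side (0.0349%). The genes called in intact XY mice had medians of 0.03 (ovary side) and -0.04 (testis side) there, and 56.2% and 62.9% had the direction of the intact mice, against 49.4% of all genes tested in both. Of the 11, 7 were also called in intact mice in the same direction. They include Cyp2d9 (-1.95 ± 0.21, adjusted p = 0.00633), Cyp7b1 (-0.71 ± 0.11, adjusted p = 0.0207), Cyp2a4 (1.21 ± 0.17, adjusted p = 0.0207) and Sult2a1 (3.39 ± 0.51, adjusted p = 0.0375).

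The difference between the intact and the GDX effect was called for 236 of 14875 genes (1.59%), 124 positive (0.834%) and 112 negative (0.753%). Of the genes called in intact XY mice, 118 of the ovary side and 105 of the testis side passed it. Cyp2b13 (5.91 intact, 0.05 GDX, adjusted p of the difference 2.35e-09), Cyp2c40 (7.08, 0.32, adjusted p = 2.27e-07) and Elovl3 (-4.83, 0.21, adjusted p = 4.68e-07) had among the smallest p. Sult2a1 did not pass it (6.68 intact, 3.39 GDX, adjusted p = 0.235), nor did Esr1 (1.03, 0.20, adjusted p = 0.0619). Surgery and the length of the diet differed between the intact and GDX cohorts and cannot be told apart here. The libraries differed too, with 3.52 to 5.42% of reads outside genes in XY Intact and 9.98 to 11.3% in XY GDX mice. The 2 effects share the intact mice with the difference.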

How the data were processed

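Liver RNA of 48 FCG mice on a HFD, 1 library per mouse, was sequenced from KAPA mRNA HyperPrep libraries, and the 12 XY Intact mice were compared here. The authors aligned with STAR 2.7.10a to the GRCm39 genome and deposited raw read counts of 55414 gene identifiers. The annotation release, strand setting and trimming are not given in the sources used here. The table's 4 lines of unassigned reads entered no test. DESeq2 1.36.0 was the authors' own test and none of its values were used.

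The groups were compared with edgeR (4.0.16, R 4.3.3) by the quasi-likelihood test with TMM normalization, filterByExpr, robust dispersions and Benjamini-Hochberg adjustment over all genes tested. The methods name contrasts with reduced models and do not say which libraries shared a fit. Each contrast was fitted on its own libraries, with a biological coefficient of variation of 28.2% in XY Intact and 14.5% in XY GDX mice. Positive log2 fold changes are higher with ovaries. SE is the log2 fold change divided by the root of its F. CPM were normalized by TMM over the 48 libraries. DESeq2 (1.42.0), limma voom (3.58.1), sva (3.50.0), other scalings, filters and sets of libraries, and leaving out each mouse, were alternatives. The members and gene lists were chosen with earlier results of these data known.

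Genes named are the 8 highest and 8 lowest log2 fold changes, up to 3 genes with the smallest p in each direction from each list (or 2 where none was called), fixed sex and receptor genes, and the 4 smallest p in each direction of each test of a difference, with exceptions stated. A few genes that this rule names are not reported here. Symbols came from a table of gene names, updated with RefSeq synonyms, and matched 31020 identifiers (56.0%) and 714 of 731 list genes. Genes of multigene families can exchange reads, and so can overlapping genes. Depth set a floor of 3 reads, equal to 0.144 (XY Ov 3) to 0.254 (XY Te 3) normalized CPM in the XY Intact libraries, for counting error only. Replicate libraries of a group differed by far more than sampling noise. The labels do not say whether mice were littermates, so p-values measure the spread between these mice. On simulated counts for 13735 genes of the XY Intact comparison, the test called 75 of 100 genes changed 2-fold and 98 of 100 changed 4-fold. Of the unchanged genes, 7 were called. These rates describe the simulated counts only. In the real libraries, leaving out a mouse gave 430 to 994 calls. Whether the rates hold with such differences between libraries, or for genes with few reads, was not tested. Promoter sequences are from RefSeq (GRCm38.p6). Python 3.11.15, numpy 2.4.6, pandas 2.3.3 and matplotlib 3.10.9 were used for tables and plots.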

Additional observations from a re-analysis of the deposited data

Results flagged for a closer look

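The 34 genes with values by mouse and 5 library measures were each tested in both groups of 6. These were 78 tests by Dixon's ratio on the log2 scale, with 0.5 added to the CPM. In them 4 values stood apart, close to the share of about 1 group in 20 that chance sets apart. Sult2a1 in XY Te 3 was 2.37 CPM, above 0.214 to 0.701 in the other Te mice. Cyp2b13 in XY Ov 3 was 72.4 CPM, below 179 to 278 in the other Ov mice, and Cyp17a1 in the same mouse was 98.4 CPM, below 139 to 168. Insig2 in XY Ov 2 was 210 CPM, above 114 to 139 in the other Ov mice.

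For 23 of the 34 genes the gonadal effect of XY Intact mice differed from that of XY GDX mice in edgeR's test of the difference. Over all genes tested, 236 of 14875 (1.59%) passed. The 34 genes were mostly named for their effect in the same intact mice that enter the difference. A high share was therefore built in by that choice and is a description. The differences (log2, intact minus GDX) were negative for Cyp4a12a (-5.96), Elovl3 (-5.04), Cyp7b1 (-2.16), Cyp2d9 (-2.21), Slco1a1 (-4.91), Mup7 (-7.45), Mup20 (-4.73), Bcl6 (-1.84), Srd5a1 (-1.76), C6 (-2.38) and Gstp1 (-2.12), with adjusted p from 4.68e-07 (Elovl3) to 0.0139 (Bcl6). They were positive for Cyp2c69 (7.27), A1bg (5.69), Sult3a1 (4.80), Cyp2c40 (6.77), Cyp2b13 (5.86), Cyp2a4 (5.45), Cyp3a44 (3.83), Cux2 (5.96), Prlr (1.10), Trim24 (1.03), Cyp17a1 (1.63) and Orm2 (2.98), with adjusted p from 2.35e-09 (Cyp2b13) to 0.044 (Trim24). The cohorts also differed in surgery, diet length and the share of reads outside genes, which cannot be told apart from the loss of gonads. None of the 34 genes differed between XY and XX Intact mice by the same test.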

How the results depend on the processing

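In XY Intact mice the 837 calls (568 with ovaries, 269 with testes) became 1556 (997, 559) by DESeq2, 2394 (1257, 1137) with all 48 libraries sharing the spread, 2268 (1367, 901) with 1 surrogate variable and 1995 (1246, 749) with the ribosomal protein covariate, which was chosen after the data were seen. Limma voom called 882 genes with ovaries (1230 in all), and library totals left 171 with testes. Leaving out each mouse gave 430 to 994 calls, with 267 to 708 for ovaries and 163 to 286 for testes. In XX Intact mice 236 calls became 469 by DESeq2 and 897 with all 48 libraries, and in XY GDX mice 11 became 33 and 4. The 236 calls of the difference between intact and GDX mice became 711 by DESeq2 and 145 with at least 10 counts in every library, and 143 to 436 when a mouse was left out (143 to 157 without XY Te GDX 1, Ov GDX 3, Ov Intact 5 or Te Intact 4, and 358 to 436 without Ov Intact 1 or 3, Te Intact 1 or Te GDX 6). The difference between XX and XY Intact mice had 0 calls under every alternative. The causes were not tested, beyond the fewer mice or genes. Of 103 named genes that were called, 62 were called under every alternative that tested them (at most 22), and no call was reversed. No paired analysis was possible because each mouse has its own identifier and the replicate numbers were given in accession order. Genes near the floor of 3 reads, such as A1bg with testes, have no measured size of change.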

Other observations

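Genes outside the lists were named because their gonadal effect differed most between intact and GDX XY mice. Aldh3b3, an aldehyde dehydrogenase, was 5.36 ± 1.98 CPM with ovaries and 0.256 ± 0.112 with testes (SD, n = 6 each; log2 4.36 ± 0.33, edgeR adjusted p = 1.46e-05), 3.08 in XX Intact and 0.30 in XY GDX mice. Aatk, a kinase, was 3.37 ± 0.78 CPM with ovaries and 14 ± 4.50 with testes (log2 -2.03 ± 0.22, edgeR adjusted p = 0.00025), -1.67 in XX Intact and 0.29 in XY GDX mice.

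The genes with the smallest p in the test of the difference between XX and XY Intact mice included S1pr1, a sphingosine 1-phosphate receptor of endothelial cells, and Hhex, a homeobox factor. S1pr1 had a log2 fold change of -0.11 ± 0.13 in XY and of 0.55 in XX mice, and Hhex one of -0.31 ± 0.11 and of 0.44. These differences did not pass edgeR's test with Benjamini-Hochberg adjustment over all genes (smallest adjusted p = 1).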
